A study of Mus musculus with 24 samples.

Results

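Solute carriers are membrane proteins that move amino acids, sugars, nucleosides, ions, vitamins and metabolites across the plasma membrane and the membranes of organelles. Their genes carry symbols that start with Slc, followed by a family number. Probes were taken as members where the platform annotation gave exactly 1 gene symbol starting with Slc and a digit. This gave 111 genes of 43 families, out of 6970 genes that probes with a single symbol name, and 136 of 15360 probes. The first platform held 74 probes of 64 genes, the second platform 62 probes of 59 genes, and 12 genes had probes in both. A further 3 probes on each platform paired an Slc symbol with another symbol and were left out. Of the members, 1 is no transporter: Slc9a3r1 encodes a scaffold protein that binds an exchanger.

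Mouse embryos were kept in culture at 37 °C, either untreated or with 40 µM 4-hydroperoxycyclophosphamide (4CP) for 1 h. This compound is a form of the alkylating drug cyclophosphamide that needs no activation in the liver. Strain, embryonic age and the number of embryos behind an RNA sample are not stated in the labels, and whole embryos mix many cell types. Each of 24 two-channel arrays carried treated RNA in 1 channel and untreated RNA in the other. There were 12 slides with 2 arrays each, and the slides formed 6 pairs with exchanged channels, 3 pairs on each of 2 platforms of 7680 probes.

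Every value is a log ratio whose base (2 or e) is unknown, so sizes are in log ratio units. An effect of 0.1 would be a factor of 1.07 if the base is 2 and of 1.11 if it is e. The treatment effect of a slide pair is the centred value with treated RNA in channel 1 minus that with treated RNA in channel 2, divided by 2. The other combination, their sum divided by 2, is the dye component. A positive sign stands for more RNA after 4CP only under 2 assumptions that the labels do not settle: the ratio was channel 1 over channel 2, and no slide was turned before deposit. Were the slides turned already, the dye component would be the response, so both are given for the members that matter. Log ratios hold no expression level, so neither levels nor the presence of cell type markers can be read from them. Pair numbers run from 1 to 3 on each platform, and nothing in the labels says that they are separate cultures, so p-values measure only how far the slide pairs of 1 platform scatter, and this scatter may be technical.

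No Slc transcript passed the test for a difference between treated and untreated embryos. With limma and Benjamini-Hochberg adjustment over all 7680 probes of a platform, 0 of 74 first-platform members and 0 of 62 second-platform members had an adjusted p under 0.05, as did 0% of all probes on each platform. The lowest adjusted p of a member was 0.997 on the first platform and 0.939 on the second. At an unadjusted p under 0.05 there were 0 of 74 members, where 2.34% of all first-platform probes had such a p, and 3 of 62, where 5.22% of all second-platform probes did. These 3 were all negative, where 4.04% of all probes were negative with such a p and 1.18% positive. The effects were small. Their median size regardless of sign was 0.039 for members against 0.035 for all probes on the first platform, and 0.027 against 0.023 on the second. Data were simulated with the spread that limma estimated for each first-platform probe. Recovered were 85 of 100 probes with a true effect of 0.25 and 100 of 100 with 0.5. For the second platform it was 100 of 100 at both sizes. The same simulations gave 16 false calls on the first platform and 15 on the second, among probes with no true effect. Smaller effects were not simulated, and no member had a mean effect as large as 0.25. The simulated scatter was normal, the 2 arrays of a slide were identical, and many probes changed at once. Measured slides hold single far arrays, so the recovery counts may be too high for them and do not exclude missed effects.

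Positive and negative effects were mixed. On the first platform 28 of 74 were positive with a median of -0.011, beside 46.2% positive and a median of -0.0047 over all probes. On the second platform 29 of 62 were positive with a median of -0.0024, beside 48.4% and -0.0015. The member medians in pairs 1, 2 and 3 were 0.0067, -0.0053 and -0.011 on the first platform and -0.0029, -0.0079 and -0.014 on the second. Of first-platform members, 8 were positive in all 3 pairs, where 11.4% of all probes were, and 11 were negative in all 3, where 11.2% were. These counts were 5 on the second platform, beside 9.84% of all probes, and 8, beside 14.7%. The arrays with treated RNA in channel 1 overlapped those with treated RNA in channel 2 for every member, and the 2 kinds of array lay apart for 0% of all probes.

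**Figure D1:**
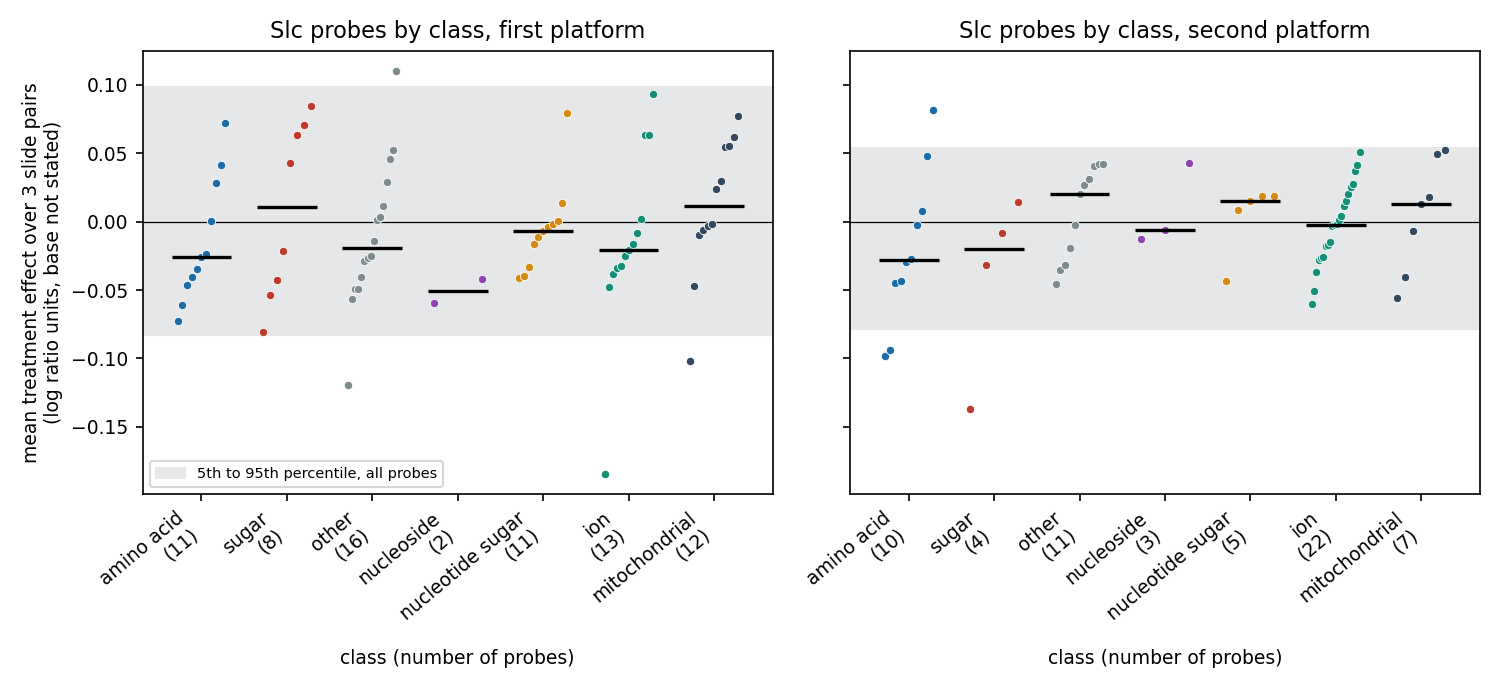
Mean treatment effect of every Slc transporter probe (vertical axis, log ratio units of unstated base) by class of solute (horizontal axis, number of probes in brackets), 1 panel per platform; points are probes, black bars class medians and the grey band runs from the 5th to the 95th percentile of all probes. All 7 class medians lie between -0.051 and 0.011 on the first platform and between -0.028 and 0.020 on the second.

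Amino acid carriers were measured with 11 probes on the first platform and 10 on the second. They supply growing cells with building blocks, and several exchange 1 amino acid for another. Of these probes, 4 and 3 were positive, with medians of -0.026 and -0.028. By pair the medians were 0.0023, -0.017 and -0.038 on the first platform and 0.0045, -0.012 and -0.056 on the second, so pair 3 held the lowest median in each.

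Slc6a6, which imports taurine, was the amino acid family member measured most often, with 3 probes, and each had a negative mean. Its second-platform probe had -0.055, -0.065 and -0.162 in pairs 1, 2 and 3, a mean of -0.094 ± 0.059 (SD, n = 3). All 3 pairs were negative, and pair 3 lay lowest. The limma fit gave an unadjusted p = 0.021 and an adjusted p = 0.94. On the first platform, 1 probe had -0.0044, -0.017 and -0.161, a mean of -0.061 ± 0.087, and the other had -0.051, 0.049 and -0.069, a mean of -0.024 ± 0.063. The latter was positive in pair 2, and on both of them pair 3 again lay lowest. The dye component of the 3 probes was also negative, at -0.555 on the second platform and -0.416 and -0.185 on the first, so the mean stays negative with or without the turn of swapped slides. With treated RNA in channel 2 alone, the second-platform sign turned, at 0.461.

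Slc38a1, a sodium-coupled importer of glutamine, had the lowest unadjusted p of all members. Its second-platform probe had -0.065, -0.061 and -0.168 in pairs 1, 2 and 3, a mean of -0.098 ± 0.061 (SD, n = 3), with an unadjusted p = 0.0178 and an adjusted p = 0.939 by limma. The array values behind it ran from -1.28 to -0.148 with a median of -0.542 in the 6 arrays with treated RNA in channel 1, and from -0.969 to -0.077 with a median of -0.413 in the 6 with treated RNA in channel 2. These ranges overlapped broadly, and within each pair the channel 1 slide lay lower. Its relative Slc38a2, which amino acid shortage is known to induce, had 0.016, 0.060 and -0.164, with positive values in pairs 1 and 2 and a negative value in pair 3. Slc1a5, another glutamine exchanger, was negative in each pair at -0.0071, -0.029 and -0.099, and Slc1a3, a glutamate importer, was positive in each at 0.037, 0.023 and 0.083.

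Slc3a2, the heavy subunit that carries the cystine and large neutral amino acid exchangers to the membrane, had -0.033, 0.087 and 0.163 in pairs 1, 2 and 3, a mean of 0.072 ± 0.099 (SD, n = 3) and the highest value of its class on the first platform. Its pairs did not share a sign. Slc43a3 was the lowest of the class there and negative in each pair, at -0.066, -0.059 and -0.092. It sits in a family of neutral amino acid carriers but is known to move purine bases. Slc6a8, the creatine importer, had -0.194, 0.108 and 0.0071 on the first platform and 0.019, -0.014 and -0.086 on the second, with signs that differed between pairs in each. Slc6a13, a carrier of the transmitter GABA, had the highest effect of the class on the second platform, 0.081 ± 0.182 (SD, n = 3), from -0.037, -0.0096 and 0.291. Only pair 3 was positive, and it rested on 1 array, which read -0.975 where its twin on the same slide read 0.411.

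**Figure D2:**
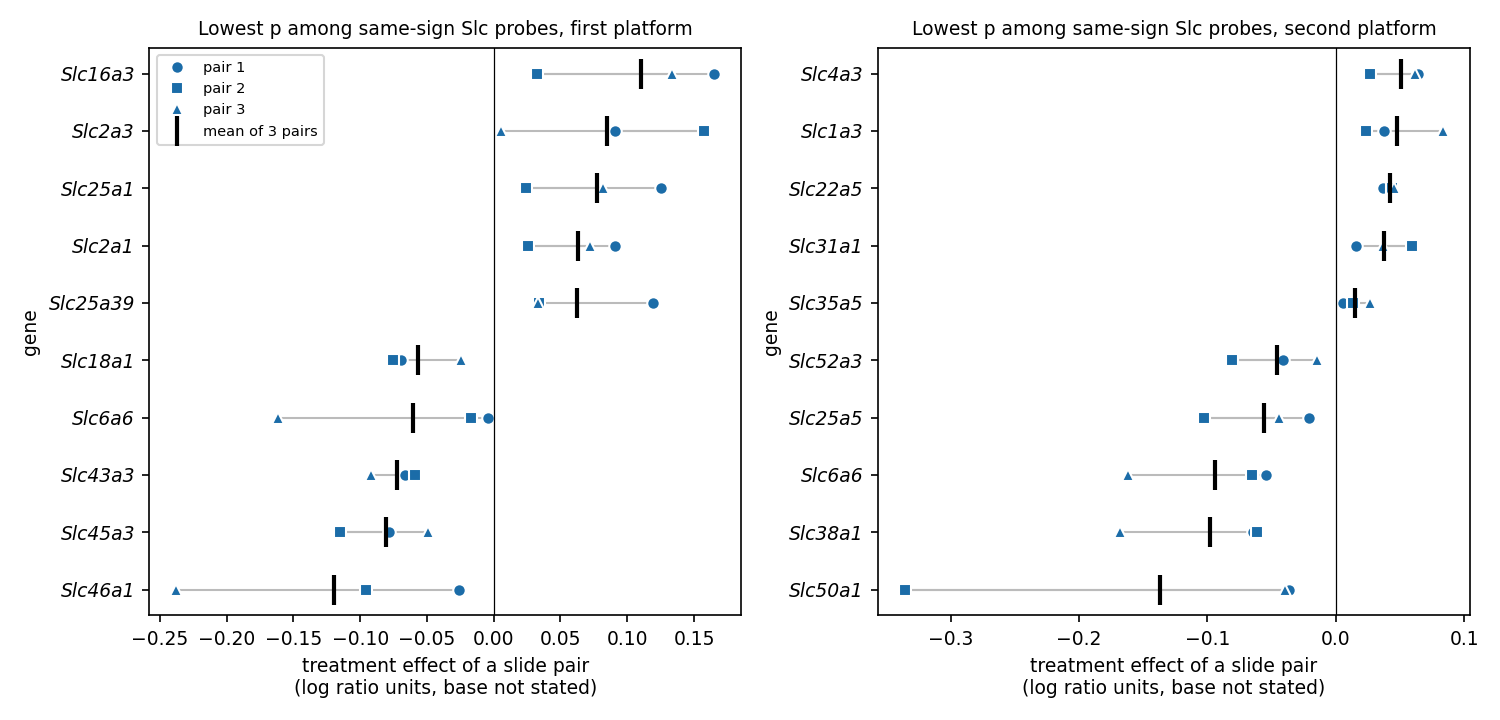
Treatment effect of each slide pair (symbols) and their mean (black tick) in log ratio units of unstated base, for the 5 positive and 5 negative Slc probes per platform with the lowest p among those with the same sign in all 3 pairs. Slc16a3 and Slc4a3 lie at the top and Slc46a1 and Slc50a1 at the bottom, and the 3 pairs of most probes are spread as widely as their mean lies from 0.

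A list of genes tied to cystine uptake, glutathione and the ATF4 transcription factor, which controls Slc3a2 and other carriers, was measured beside the members. On the first platform 8 of its 10 probes were positive with a median of 0.067, and 3 had an unadjusted p under 0.05, as did 2.34% of all probes. On the second platform 4 of 4 were positive with a median of 0.040, and 0 had such a p. After adjustment by limma 0 of the 14 probes passed. Of the 10 first-platform probes 3 read Sars, a seryl-tRNA synthetase, among them 2 of the 3 with such a p, and its second-platform probe was at 0.003. Gclc, which catalyses the first step of glutathione synthesis, was negative on both of its probes, at -0.044 and -0.011. Asns, asparagine synthetase, had -0.039, 0.146 and 0.199 in pairs 1, 2 and 3, and Nfe2l2, the NRF2 factor, had 0.212, 0.019 and 0.327 on the first platform and 0.020, 0.066 and 0.044 on the second. The median dye component of the list was -0.241 and -0.401, so without the turn its median has the opposite sign.

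Sugar carriers had 8 probes on the first platform and 4 on the second, with medians of 0.011 and -0.020. The facilitative glucose transporters of the Slc2 family let glucose enter down its gradient, and lactate, the end product of glycolysis, leaves through monocarboxylate transporters of the Slc16 family. Slc2a1, the widely expressed glucose transporter, had 0.091, 0.026 and 0.072 in pairs 1, 2 and 3 on 1 probe and 0.057, 0.074 and -0.0024 on the other. The means were 0.063 ± 0.034 and 0.043 ± 0.040 (SD, n = 3). Over the first arrays of the slides they were 0.110 and 0.036, and over the second arrays 0.016 and 0.050. All pairs but pair 3 of the second probe were positive. Slc2a3, the high-affinity transporter of neural and placental tissue, was positive in each pair at 0.091, 0.157 and 0.0053, a mean of 0.084 ± 0.076. Over first and second arrays it had 0.111 and 0.058. Slc2a8, an intracellular member, had -0.128, -0.019 and 0.359 on 1 probe and -0.017, -0.031 and -0.017 on the other, and the probes disagreed in pair 3. Behind the 0.359, 1 array read 1.07 where its twin on the same slide read 0.305. Slc2a4, the insulin-responsive transporter, was at -0.031 ± 0.028 on the second platform.

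Among the lactate carriers, Slc16a3, the exporter of glycolytic cells, had the highest mean effect of all first-platform members. It had 0.165, 0.032 and 0.133 in pairs 1, 2 and 3, a mean of 0.110 ± 0.069 (SD, n = 3), an unadjusted p = 0.0575 and an adjusted p = 0.997 by limma. Its array values ran from -0.020 to 0.384 with a median of 0.187 with treated RNA in channel 1 and from -0.305 to 0.152 with a median of -0.0066 with treated RNA in channel 2. The mean of the channel 1 slide lay higher in each pair, but the ranges overlapped. In pair 2 the single arrays overlapped too, at 0.115 and 0.258 against 0.091 and 0.152. Slc16a1, the widely expressed form, had 0.118, 0.039 and 0.00075, positive in each pair, though by very little in pair 3. Over the first arrays of the slides it had 0.087 and over the second arrays 0.018. Slc16a13 had -0.163, 0.162 and 0.035 on 1 probe and 0.037, -0.197 and 0.012 on the other, and Slc16a6 had -0.079, -0.093 and 0.093. None of these had a shared sign. Without the turn, positive means stayed positive for Slc16a3, at 0.058, and for 1 probe each of Slc2a8 and Slc16a13, at 0.239 and 0.058, whereas Slc2a1, Slc2a3 and Slc16a1 turned negative, at -0.332 and -0.344, -0.368 and -0.403. With values as deposited, without centring, Slc16a3 and these 3 genes were all negative, from -0.081 on the lowest probe of Slc2a1 to -0.014 for Slc16a3, while the median of all probes was -0.128.

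Slc2a1 and Slc16a3 are textbook targets of hypoxia-inducible factor, whose binding element has the core ACGTG. Promoters were sought for both genes and for Slc16a1, Slc2a3, Slc6a6 and Slc38a1. None was found for Slc2a3, Slc6a6 or Slc38a1, so only those of Slc2a1, Slc16a3 and Slc16a1 are shown, and these hold the core. The windows run from 250 bases before to 50 after the gene start, 5′ to 3′ on the gene's strand, from RefSeq on GRCm38.p6. Capitals mark ACGTG on either strand, and where CACGTG is capital the matches on both strands overlap.
Slc2a1 at chr4:119108495-119108794, plus strand: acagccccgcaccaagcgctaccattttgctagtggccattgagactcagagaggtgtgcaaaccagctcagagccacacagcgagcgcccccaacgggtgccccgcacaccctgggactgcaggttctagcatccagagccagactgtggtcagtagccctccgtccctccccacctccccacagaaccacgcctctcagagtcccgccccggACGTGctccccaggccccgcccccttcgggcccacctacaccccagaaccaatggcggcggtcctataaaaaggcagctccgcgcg
Slc16a3 at chr11:120948817-120949116, plus strand: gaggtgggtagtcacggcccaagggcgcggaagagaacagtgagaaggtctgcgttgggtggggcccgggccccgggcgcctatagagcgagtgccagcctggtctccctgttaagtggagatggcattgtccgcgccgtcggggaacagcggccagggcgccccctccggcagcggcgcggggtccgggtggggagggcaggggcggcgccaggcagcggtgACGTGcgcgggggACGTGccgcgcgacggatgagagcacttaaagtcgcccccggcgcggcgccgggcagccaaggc
Slc16a1 at chr3:104638414-104638713, plus strand: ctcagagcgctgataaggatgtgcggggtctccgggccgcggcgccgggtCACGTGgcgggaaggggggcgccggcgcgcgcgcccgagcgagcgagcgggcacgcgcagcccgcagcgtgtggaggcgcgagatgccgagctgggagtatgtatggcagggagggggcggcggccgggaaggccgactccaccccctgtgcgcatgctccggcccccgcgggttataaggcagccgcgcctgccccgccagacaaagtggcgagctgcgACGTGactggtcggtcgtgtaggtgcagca
The motif search found 1, 2 and 3 match positions in them, with the 2 strands of an overlapping match counted separately. Promoters were found for 83 of the 111 member genes, as 106 windows, of which 35 held ACGTG (33.0%), beside 20.9% of 21263 windows of protein-coding genes and 19.6% of all 32851. The amino acid response motif TGATGNAA was in 3 of the 106 (2.8%), beside 3.6% and 4.0%. These matches are descriptions of the letters only.

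Slc45a3, a proton-coupled sugar carrier, was negative in each pair on both of its first-platform probes, with -0.098, -0.010 and -0.052 on 1 probe and -0.079, -0.115 and -0.049 on the other. The means were -0.054 ± 0.044 and -0.081 ± 0.033 (SD, n = 3). Without the turn both were positive, at 0.076 and 0.240. Slc50a1, a sugar carrier of the SWEET type, had the lowest mean of all second-platform members, -0.137 ± 0.172, from -0.036, -0.335 and -0.039, with an unadjusted p = 0.0378 and an adjusted p = 0.94 by limma. That value rested on 1 array of pair 2, which read -1.61 while its twin on the same slide read 0.065. Over the first arrays of the slides the effect was -0.285 and over the second arrays 0.011. Slc45a4 was the highest of the class on the second platform at 0.014 ± 0.028.

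**Figure D3:**
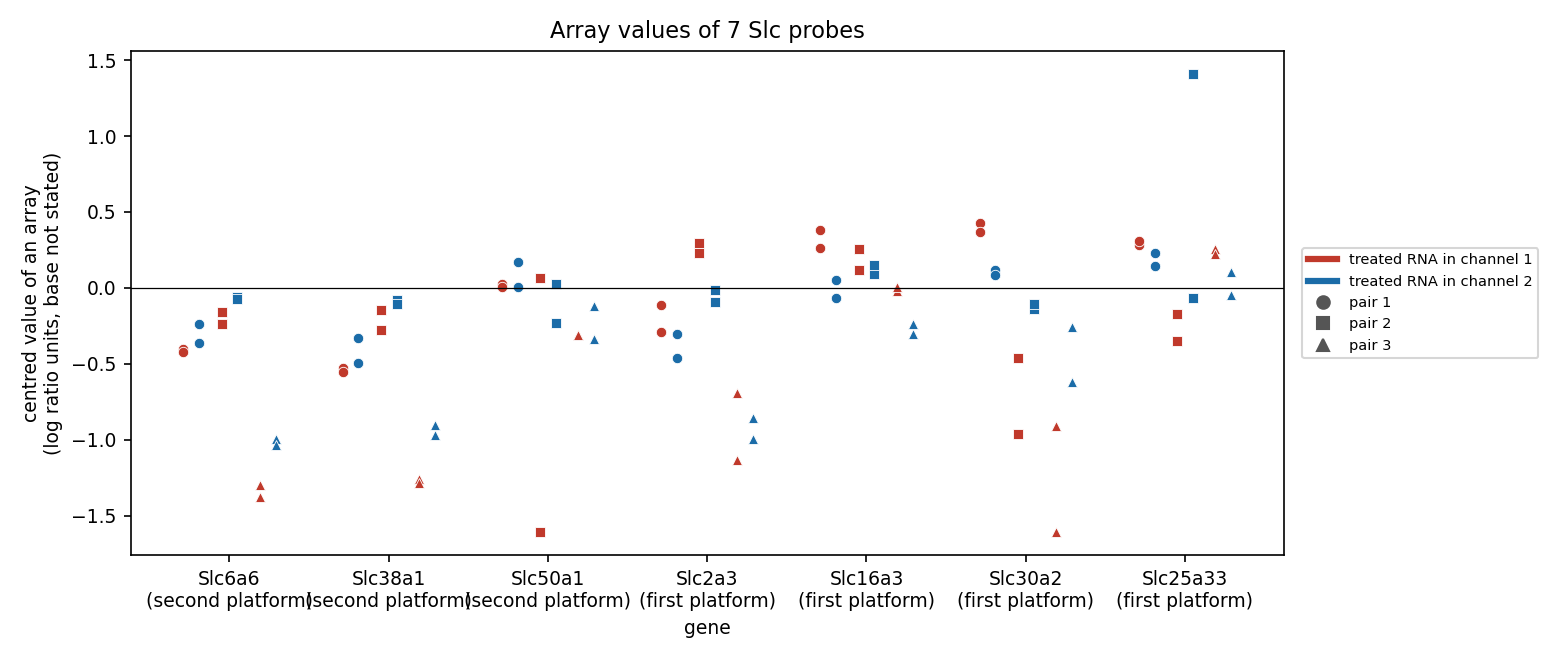
Centred values of all 12 arrays (vertical axis, log ratio units of unstated base) for 7 Slc probes (horizontal axis), with treated RNA in channel 1 in red and in channel 2 in blue, and the pair shown by the symbol. The red and blue points overlap in range for each probe, pair 3 of Slc6a6 and Slc38a1 lies below their pairs 1 and 2, and the single arrays of Slc50a1 at -1.61 and of Slc25a33 at 1.41 stand away from their twins.

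Nucleoside transporters carry bases and nucleosides for nucleic acid synthesis and take up nucleoside drugs. Of the 2 probes on the first platform and 3 on the second, 0 and 1 were positive. Slc29a1, the main equilibrative transporter, had -0.010, -0.016 and 0.008 in pairs 1, 2 and 3 on 1 probe and -0.043, 0.114 and 0.059 on the other, without a shared sign on either. Slc29a2, its relative, was negative in each pair at -0.026, -0.0054 and -0.094, a mean of -0.042 ± 0.046 (SD, n = 3). Of the concentrative members, Slc28a2 had 0.177, -0.282 and -0.074 and Slc28a3 had 0.032, -0.011 and -0.058, both with pairs on either side of 0.

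The Slc35 family is known for nucleotide sugar transporters that feed glycosylation in the endoplasmic reticulum and Golgi. The class was set by family, and some of its members, such as Slc35f2 and Slc35f6, are not known to carry nucleotide sugars. It had 11 probes on the first platform and 5 on the second, of which 3 and 4 were positive, with medians of -0.0067 and 0.015. Its effects ran from -0.041 to 0.079 and from -0.044 to 0.019. Slc35f2 was the highest on the first platform through pair 3 alone, at 0.010, -0.0069 and 0.234. Slc35f6 was the lowest there, with -0.021, -0.0038 and -0.099 on the probe that was negative in each pair and -0.093, 0.032 and -0.058 on the other. Slc35a5 was positive in each pair on the second platform at 0.0058, 0.014 and 0.026, but not on the first, at 0.046, -0.048 and -0.0032.

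Carriers of inorganic ions and metals were the largest class, with 13 probes on the first platform and 22 on the second. They set cell pH, volume and the supply of phosphate, zinc, copper and iron. Of these probes, 4 and 10 were positive, with medians of -0.021 and -0.0022. Slc30a2, a zinc transporter of vesicles, had the lowest mean of all members, -0.184 ± 0.294 (SD, n = 3). It was 0.149, -0.294 and -0.408 in pairs 1, 2 and 3, so pair 1 was positive and the others negative, with an unadjusted p = 0.0854 and an adjusted p = 0.997 by limma. Without pair 1, its only positive pair, it was -0.351 and passed with an adjusted p = 0.0048 by limma. Without centring, as deposited, the value was -0.308 and passed with an adjusted p = 0.0231 by limma. The median of all first-platform probes lay below 0 there too. How many of all probes passed under either setting is not given here, so neither pass is read as particular to Slc30a2. The adjusted p over all its alternatives ran from 0.0048 to 1. The effect was negative under each of them except treated RNA in channel 2 alone, where it was 0.154.

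The other zinc carriers were spread around 0. On the second platform the exporters Slc30a3, Slc30a4, Slc30a5, Slc30a7 and Slc30a9 all had negative means, from -0.060 to -0.0029, but none was negative in each pair, and the pair medians were 0.0046, 0.028 and -0.060. The group median was below 0 in pair 3 only. The importers Slc39a10 and Slc39a14 were at 0.094 ± 0.103 and 0.064 ± 0.123 (SD, n = 3) on the first platform, and Slc39a4, Slc39a7, Slc39a8 and Slc39a9 lay between -0.017 and 0.027 on the second. Slc39a10 had -0.024, 0.170 and 0.134, positive in pairs 2 and 3. In pair 2, 1 array read 1.145 where its twin on the same slide read 0.213. In pair 3, 1 array read 0.051 where its twin read 0.527. Over the first arrays of the slides the effect was 0.166 and over the second arrays 0.022.

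Slc31a1, the copper importer of the plasma membrane, which also takes up platinum drugs, was positive in all 3 pairs on both platforms. It had 0.147, 0.036 and 0.0066 on the first platform and 0.016, 0.059 and 0.037 on the second, with means of 0.063 ± 0.074 and 0.037 ± 0.021 (SD, n = 3), unadjusted p = 0.246 and 0.24 and adjusted p = 0.997 and 0.977 by limma. Over the first and second arrays of the slides it had 0.103 and 0.024 on the first platform and 0.027 and 0.047 on the second. Its dye component was -0.040 and -0.059, so both signs turn without the turn of swapped slides. Its relative Slc31a2 was negative in each pair at -0.014, -0.016 and -0.024. For iron, the importer Slc11a2 had -0.048 ± 0.077 and 0.011 ± 0.017 on the first and second platforms and the exporter Slc40a1 had -0.028 ± 0.081, none with a shared sign.

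Among ion exchangers and cotransporters, Slc4a3, an anion exchanger, was the highest of the second-platform ion carriers and positive in each pair at 0.064, 0.026 and 0.062. Slc4a1, the anion exchanger of red cells, had -0.078, 0.039 and -0.042, with pair 2 on the other side of 0. The erythroid marker list beside it had 2 of 8 second-platform probes positive and a median of -0.048. Its pair medians of -0.113, 0.023 and -0.031 rest on 4 probes of Hbb-y, an embryonic globin gene, among the 8. Hba-x, another embryonic globin gene, was negative in each pair, at -0.077, -0.041 and -0.145. So was Alas2, an enzyme of haem synthesis, at -0.053, -0.054 and -0.054. Of all second-platform probes, 14.7% were negative in each pair. The 2 positive probes of the list were both of Tfrc, at 0.013 and 0.022, and all 4 probes of Hbb-y were positive in pair 2. After adjustment 0 of the 8 probes passed by limma, so no loss of erythroid RNA was shown. Red cell number and RNA per cell cannot be told apart in whole embryos. The part of the markers in the value of Slc4a1 was not tested. The chloride cotransporters Slc12a2, Slc12a4 and Slc12a7 lay between -0.034 and 0.020 over 5 probes. The phosphate importer Slc20a1 had -0.025 ± 0.078 (SD, n = 3), and the 3 probes of Slc34a2, another phosphate carrier, had 0.0017 on the first platform and -0.0016 and 0.041 on the second.

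Mitochondrial carriers of the Slc25 family exchange nucleotides, phosphate and metabolites across the inner mitochondrial membrane. They had 12 probes on the first platform and 7 on the second, of which 6 and 4 were positive, with medians of 0.011 and 0.013. The count includes Slc25a17, which belongs to the family but sits in peroxisomes. Slc25a1, the citrate carrier, had the highest first-platform mean and was positive in each pair, at 0.125, 0.024 and 0.082, a mean of 0.077 ± 0.051 (SD, n = 3). Slc25a39, which imports glutathione into mitochondria, was also positive in each pair, at 0.120, 0.034 and 0.033. Over the first and second arrays of the slides, Slc25a1 had 0.096 and 0.058 and Slc25a39 had 0.105 and 0.020. Without the turn both were negative, at -0.238 and -0.257.

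The sign of Slc25a5 differed between platforms. This carrier, which exchanges ADP for ATP, had 0.112, 0.092 and -0.040 in pairs 1, 2 and 3 of the first platform, a mean of 0.055 ± 0.082 (SD, n = 3). It was negative in each pair on the second platform at -0.021, -0.102 and -0.044, a mean of -0.056 ± 0.042. Near-identical copies of this gene exist, and a probe may read more than 1 of them. Its dye component also differed, at -0.618 and -0.0081. With treated RNA in channel 1 alone its first-platform effect was -0.563, and with treated RNA in channel 2 alone it was of the opposite sign, 0.673 with an adjusted p = 0.041 by limma, where its adjusted p ran from 0.041 to 1 over all alternatives. How many of all probes passed with channel 2 alone is not given here, so this pass is not read as particular to Slc25a5. Slc25a3, the phosphate carrier, had 0.055 ± 0.071 and 0.018 ± 0.029. Slc25a33, a pyrimidine nucleotide carrier, had the lowest mean of the family, -0.102 ± 0.317, from 0.055, -0.467 and 0.106, where pair 2 rested on 1 array that read 1.41 against -0.069 on its twin.

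Carriers of vitamins, lipids, organic ions and other solutes made up 16 first-platform and 11 second-platform probes, the lactate carriers included, with medians of -0.020 and 0.020. Slc46a1, the proton-coupled folate transporter, had the lowest mean of the class on the first platform. It was negative in each pair, at -0.026, -0.096 and -0.238, a mean of -0.120 ± 0.108 (SD, n = 3), with an unadjusted p = 0.0604 and an adjusted p = 0.997 by limma. Its sign was negative without the turn too, at -0.054, and for either orientation alone, at -0.174 and -0.066. Slc18a1, a vesicular amine transporter, was negative in each pair at -0.069, -0.075 and -0.025. Slc22a5, the carnitine importer, was positive in each pair on the second platform, and its pairs lay closer together than those of any other member, at 0.037, 0.044 and 0.045. Slc52a3, a riboflavin importer, was negative in each pair at -0.041, -0.081 and -0.014. Slc44a1, which carries choline, was the highest of the class there on 1 probe, at 0.042 ± 0.108, with -0.035 ± 0.068 on its other.

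**Figure D4:**
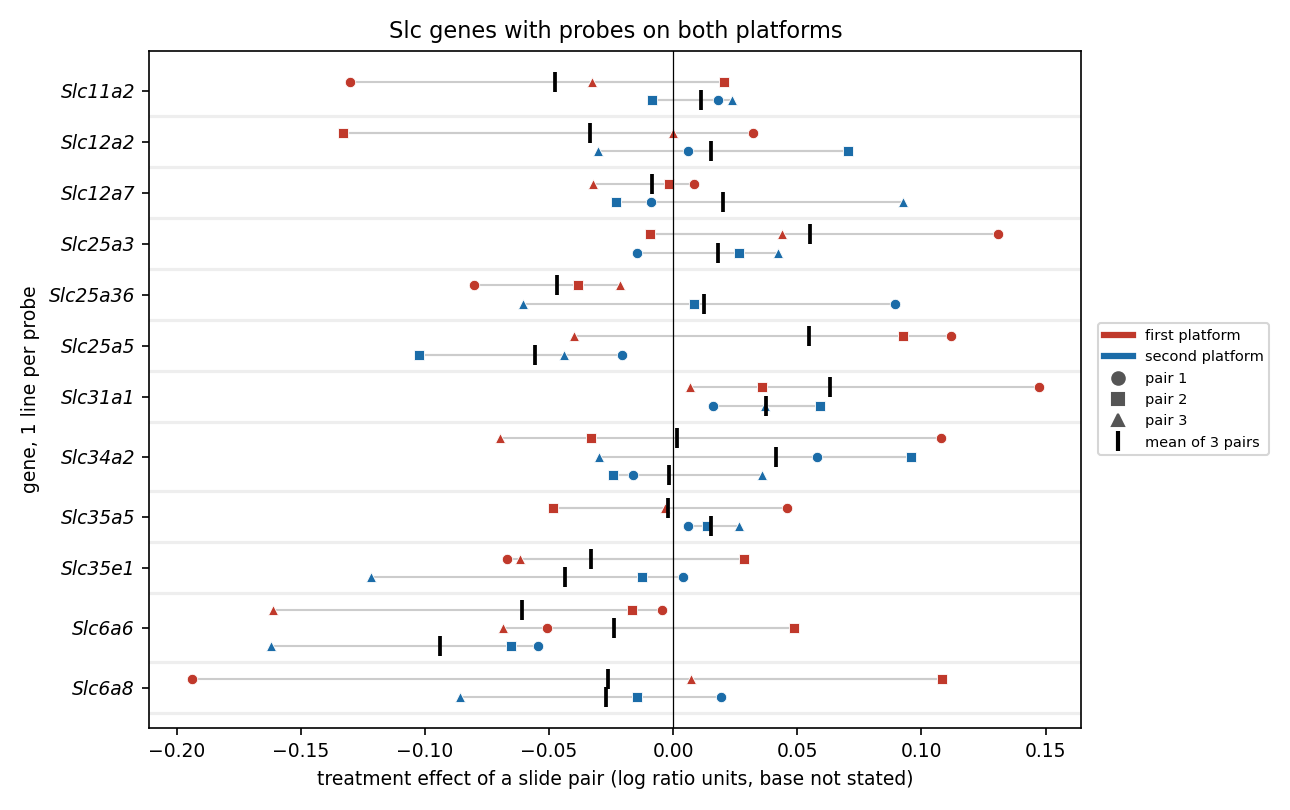
Treatment effect of each slide pair (symbols) and mean of 3 pairs (black ticks) in log ratio units of unstated base for the 12 Slc genes with probes on both platforms, 1 line per probe, first platform in red and second in blue. Slc31a1 lies right of 0 in every pair on both platforms, and the means of Slc25a5 lie on opposite sides of 0.

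The 12 genes on both platforms allow the same transcript to be read with different probes. The means had the same sign on both platforms on every probe for Slc31a1 and Slc25a3, which were positive, and for Slc6a6, Slc6a8 and Slc35e1, which were negative. Signs differed for Slc11a2, Slc12a2, Slc12a7, Slc25a36, Slc25a5 and Slc35a5, and for Slc34a2 they differed between its second-platform probes as well. Of the 12, Slc31a1 alone had 1 sign in all pairs on both platforms. Of all probes, 11.4% and 9.84% were positive in all 3 pairs on the first and second platforms, and 11.2% and 14.7% were negative. How often signs agree among all genes on both platforms was not counted, so such agreement is not read as particular to these genes. Slc25a36, a pyrimidine nucleotide carrier, was negative in each pair on the first platform at -0.080, -0.038 and -0.022 and had 0.089, 0.0086 and -0.060 on the second. Whether the platforms share RNA extracts is not stated, so the platforms are not counted as separate replicates.

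**Figure D5:**
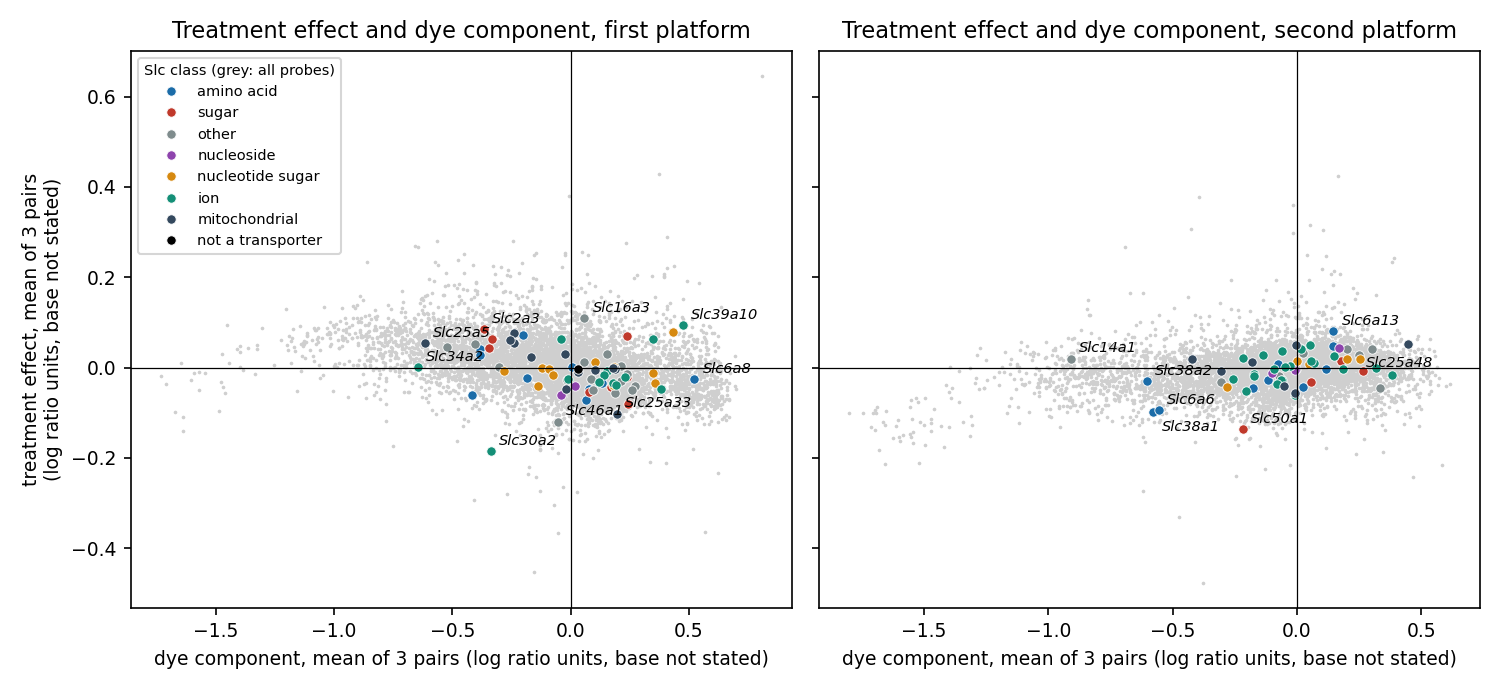
Mean treatment effect (vertical axis) against mean dye component (horizontal axis) in log ratio units of unstated base, for Slc probes coloured by class over all probes in grey, 1 panel per platform. Slc probes stretch from -0.647 to 0.522 and from -0.910 to 0.447 along the dye component, but only from -0.184 to 0.110 and from -0.137 to 0.081 along the treatment effect.

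The dye component, which would be the response had the slides been turned before deposit, was larger in size than the treatment effect for 64 of 74 first-platform and 54 of 62 second-platform members. For all probes this count is not given here, so it is not read as particular to the members. Over all first-platform probes, the SD of the dye component was 0.272, 0.271 and 0.679 in pairs 1, 2 and 3. That of the treatment effect was 0.124, 0.0987 and 0.0996. On the second platform these SDs were 0.355, 0.241 and 0.566 against 0.058, 0.0789 and 0.0866. The median dye component over members was 0.069 on the first platform and -0.0089 on the second, beside 0.016 and -0.030 for all probes. Tested in the same way, 0 of 74 and 0 of 62 members passed by limma, where 2.85% and 0% of all probes did. At an unadjusted p under 0.05 there were 6 and 7 members, where 18.5% and 16.3% of all probes had such a p. The lowest dye component was that of Slc14a1, a urea transporter of red cells among other tissues, with -1.09, -0.136 and -1.51 in pairs 1, 2 and 3 of the second platform (adjusted p = 0.198 by limma). Its treatment effect was 0.020 ± 0.046 (SD, n = 3). Slc34a2 had -0.301, -0.252 and -1.39 on the first platform, where its second-platform probes had means of 0.016 and 0.320. The highest first-platform value was that of Slc6a8, with 0.416, 0.575 and 0.575, and the highest second-platform value that of Slc25a48, with 0.430, 0.314 and 0.598. Across pairs, the spread of the dye component was largest in pair 3, with an SD over all probes of 0.679 and 0.566. Pair 3 also gave the lowest effect of Slc6a6 on each probe and of Slc38a1, Slc38a2, Slc1a5 and Slc46a1, and the part of the dye component in those values was not tested beyond the removal of its trend, which left Slc6a6 at -0.077 and Slc38a1 at -0.083 on the second platform.

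Other transport proteins were measured by symbol beside the solute carriers. ABC proteins, many of which use ATP to export drugs and lipids, had 12 probes on the first platform and 7 on the second. Of these, 6 and 2 were positive, with medians of 0.0017 and -0.015. The list was set by symbol, and its members Abce1, Abcf1, Abcf2 and Abcf3 are not transporters. Both positive second-platform probes were of these, Abcf2 at 0.0086 and Abce1 at 0.00061. Of the 6 positive on the first platform, only that of Abcc1, at 0.007, was of a transporter. Abcc1, an exporter of glutathione conjugates, had -0.043, 0.119 and -0.056 and 0.025, -0.043 and -0.069 on the first and second platforms, and Abcb1b, a multidrug exporter, had 0.117, -0.150 and 0.012, none with a shared sign. The ion-pumping ATPases, which build the gradients that many solute carriers use, had 15 and 13 probes, of which 7 and 6 were positive, with medians of -0.008 and -0.00058. Of these lists, 0 probes had even an unadjusted p under 0.05, and 0 passed by limma after adjustment.

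Markers of tissues of the embryo, and of yolk sac, trophoblast and decidua outside it, were read as a check on composition, as far as ratios allow. Yolk sac visceral endoderm markers had 2 of 7 and 0 of 2 probes positive on the first and second platforms, with medians of -0.026 and -0.026. Trophoblast and decidua markers had 3 of 6 first-platform probes positive with a median of -0.006, neural tube markers had 2 of 2 with 0.056, and erythroid markers had 1 of 2. After adjustment 0 of these marker probes passed by limma.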

How the data were processed

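Each of 24 arrays gave 1 log ratio per probe, from treated RNA in 1 channel and untreated RNA in the other. The values were deposited by the authors as log ratios in 2 tables, 1 per platform, of 7680 probes and 12 arrays each. Their base and numerator, any background correction or normalization, and the scanner were not stated in the labels or file headers. Base 10 was set aside because the highest value, 7.71, exceeds 4.82, the log10 of a 16-bit range.

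Each array was centred on its median, and the 2 arrays of a slide were averaged. The effect of a pair was the difference of its slides divided by 2, which cancels only a dye effect that is equal on both slides. Over all first-platform probes it still correlated with the dye component, with r of -0.456, 0.374 and 0.154 in pairs 1, 2 and 3. On the second platform r was 0.104, 0.118 and 0.143. The effect was tested against 0 over 3 pairs by lmFit and eBayes of limma 3.58.1 (R 4.3.3). The p-values were adjusted over all probes of a platform by Benjamini-Hochberg, with a threshold of 0.05. The arrays' number limits the precision. The steps were tested on simulated data. The block on the slide pair comes from the labels, where a pair holds the same number in both orientations.

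Symbols come from the platform annotation, which gave 1, several or no symbol for 4749, 227 and 2704 first-platform probes and 4935, 275 and 2470 second-platform probes. All member genes were found in RefSeq by ID. Solute classes and gene lists are hand-written. Named are the probes with the 5 lowest p in each direction among those with 1 sign in all pairs, genes on both platforms, the well-known carriers of a hand-written list that have a probe, and the highest and lowest probe of each class. Other genes named were chosen after their values were seen. Members and lists were chosen with earlier results of these data known. Alternatives were other centring, scaling, quantile normalization, no replicate block, no turn, each orientation alone, and each pair left out. Those without the dye trend, and with the first or second array of each slide, were chosen after seeing the data.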

Additional observations from a re-analysis of the deposited data

Results flagged for a closer look

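In 130 groups of 6 arrays (1 member, 1 orientation), 9 held an array far from the other 5 by Dixon's criterion. Chance flags about 1 in 20 groups only if the arrays are independent and the probes are not picked by their values. Here 2 arrays shared each slide and some probes were named for extreme effects, so the 9 cannot be read against that rate. On the first platform, Slc20a1 had an array at -0.521 (channel 2, pair 3) with the nearest other at -0.027, and Slc25a33 had 1 at 1.41 (channel 2, pair 2) with the nearest at 0.231. On the second platform, Slc6a13 had 1 array at -0.139 (channel 1, pair 2) with the nearest at 0.279, and 1 at -0.975 (channel 2, pair 3) with the nearest at 0.044. Slc12a2 had 1 at -0.305 (channel 1, pair 3) with the nearest at 0.057. The others came from pair 2 with treated RNA in channel 1: Slc6a8 at -0.833 (nearest -0.147), Slc25a36 at -0.589 (nearest -0.213), Slc45a4 at -0.191 (nearest 0.176) and Slc50a1 at -1.61 (nearest -0.307). Thus 5 of the 9 lay on that slide of the second platform, 4 of them on its first array. No cause was tested.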

How the results depend on the processing

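No member passed under scaling, quantile normalization, the fit with no replicate block (0 and 0 on the first and second platforms) or without the turn. On the first platform 1 member passed with values as deposited (Slc30a2), 1 with treated RNA in channel 2 alone (Slc25a5) and 0 to 1 when a pair was left out (Slc30a2 without pair 1). On the second platform 0 passed under any alternative. Over all probes, 2.85% and 0% passed without the turn on the first and second platforms. An unadjusted p under 0.05 without the turn was found for 18.5% and 16.3% of all probes. For the other alternatives no share over all probes is given here, so their counts are not read as results about the members. Members with an unadjusted p under 0.05, against 0 on the first platform, numbered 26 as deposited, 6 without the turn, 6 and 8 with channel 1 or channel 2 alone, 1 with the dye trend removed and 0 to 7 with a pair left out. Against 3 on the second platform, they numbered 0 as deposited, 0 with no replicate block for the slide pair, 7 without the turn, 6 and 6 for either channel alone, 0 with second arrays alone and 2 to 4 with a pair left out. The median effect, -0.011 on the first platform, was -0.134 as deposited, 0.069 without the turn, 0.038 and -0.0998 for channel 1 and channel 2 alone, and -0.014 to 0.00049 with a pair left out. On the second platform, against -0.0024, it was -0.055 as deposited (all probes -0.054), 0.0032 scaled, 0.0085 by quantiles, -0.0089 without the turn, -0.022 and 0.025 for either channel alone, 0.012 with second arrays alone, and -0.013 to 0.0010 with a pair left out. For these the cause was not tested. As deposited, the median of all first-platform probes lay below 0 too. Averaging the probes of a gene first left the medians at -0.010 and -0.0022. Of 65 named probes, the sign changed for 30 as deposited, 28 without the turn, 25 and 27 for either channel alone, 4 scaled, 7 by quantiles, 5, 8 and 8 without pair 1, 2 or 3, 2 without the dye trend, 7 and 11 with first or second arrays alone, and 0 without the block. Signal over background is not in these log ratios, so dim probes could not be filtered.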

Other observations

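Further members were read on more than 1 probe of the first platform. Slc38a4, an importer of neutral and cationic amino acids in liver and placenta, had 0.106, 0.057 and -0.038 in pairs 1, 2 and 3 on 1 probe and 0.154, 0.013 and -0.082 on the other, positive in pairs 1 and 2 on both. Slc25a20, which brings acylcarnitines into mitochondria, had 0.020, 0.042 and 0.029 and 0.021, -0.073 and 0.033, and its probes differed in sign in pair 2. Slc15a2, a proton-coupled peptide importer, had -0.132, 0.024 and -0.013 and 0.174, 0.054 and -0.090. Its 2 probes differed in the dye component too, at 0.271 and -0.522. Slc35b1, a nucleotide carrier of the endoplasmic reticulum, had -0.132, 0.120 and -0.00022 and 0.029, -0.057 and -0.021.

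Members with wide spread between pairs lay on both sides of 0. Slc13a4, a sulfate importer of the placenta, had 0.097, -0.038 and -0.208 in pairs 1, 2 and 3. Slc22a7, an organic anion carrier, had -0.218, 0.096 and 0.133, and Slc19a3, a thiamine importer, had -0.053, 0.164 and 0.011. Slc25a37, which supplies iron to mitochondria of red cell precursors, had -0.057, 0.043 and -0.007, with pair 2 alone positive.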
